A study of Homo sapiens with 9 samples.

Results

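The genes RING1, RNF2, CBX2, CBX6, CBX7, CBX8, PHC1, PHC2 and PHC3 encode the catalytic RING, chromodomain CBX and polyhomeotic PHC subunits of canonical Polycomb repressive complex 1 (PRC1). They were taken by gene symbol, and all 9 were present among the 26364 genes of every count file. RNA was compared between MDA-MB-231 cells, a human breast adenocarcinoma line, that had been infected with a pLVX lentivirus carrying MEL-18 T334A, with one carrying the unmutated protein (MEL-18 WT) or with the empty pLVX vector. T334A replaces a threonine that the design text gives as a phosphorylation site, and each group held 3 biological replicates, cultured for 48 h in medium with 10% FBS. All 3 groups are stably transduced cells, the endogenous MEL-18 gene stayed present in each, and no label gives the promoter of the transgene, whether a line was a single clone or how many transductions were made. A difference between constructs therefore cannot be told apart from a difference between the transduced lines, and each p-value measures only the spread between these cultures. In RNA from whole cultures, fewer cells expressing a gene and less RNA per cell cannot be told apart.

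PRC1 places a single ubiquitin on histone H2A (the mark H2AK119ub), and RING1 or RNF2 is the catalytic subunit of every PRC1. A PCGF protein such as MEL-18 (gene PCGF2) or its paralog BMI1 pairs with the RING protein and sets the type of complex. In canonical PRC1 a CBX protein reads H3K27me3, the histone mark laid by PRC2, and a PHC protein polymerises through its SAM domain and compacts chromatin. MEL-18 and the 9 subunits are thus parts that assemble together, and the question put to the counts was whether raising 1 part moved the RNA of the others.

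PCGF2 was raised in every library labelled as carrying MEL-18, at 1420 ± 30.9 CPM (counts scaled to a common library total; SD, n = 3) with MEL-18 T334A and 1286 ± 6.55 CPM with MEL-18 WT, against 22.7 ± 0.88 CPM with the vector. It was called 1.10-fold higher with MEL-18 T334A than with MEL-18 WT (edgeR adjusted p = 1.48e-04), without overlap of the libraries. The part of this difference in other differences between the MEL-18 groups was not tested. Transgene and endogenous reads were not separated. Its paralog BMI1 averaged 3.61, 3.61 and 4.02 CPM in MEL-18 T334A, MEL-18 WT and vector cells and was not called in any comparison. Library totals ran from 31643722 to 37005302 counts, and 14738 genes had enough counts to be tested. The keratin genes KRT7, KRT8, KRT18 and KRT19 were high in all groups, the lowest group mean being 86.6 CPM for KRT19 with the vector, as was the mesenchymal gene VIM. The mesenchymal gene CDH2 held only 9 to 26 counts in a library. The epithelial cadherin CDH1 stood at 9 counts or fewer in every library, so the epithelial label rests on the keratins and EPCAM. The hormone receptors ESR1 and PGR, the fibroblast genes DCN and LUM and the lymphocyte gene CD3E held at most 4 counts in a library, while the stromal genes COL1A1 and PDGFRB were detected in all libraries. The receptor gene ERBB2 averaged 69.9, 68.6 and 63.8 CPM in MEL-18 T334A, MEL-18 WT and vector cells. It was called higher with either construct than with the vector. EPCAM averaged 12.2, 10.1 and 7.47 CPM, COL1A1 12.7, 11.8 and 8.79 CPM and PDGFRB 9.54, 7.91 and 6.32 CPM in MEL-18 T334A, MEL-18 WT and vector cells. PTPRC, CD14 and the endothelial genes PECAM1, VWF and CDH5 held 4 to 40 counts. With MEL-18 T334A against the vector, where 23.4% of all tested genes were called higher and 22.5% lower, 3 of 5 tested epithelial genes, 4 of 4 mesenchymal and 2 of 2 tested fibroblast genes were called higher. KRT18 (-0.24 on the log2 scale) and 2 of 3 endothelial genes, CDH5 (-2.20) and PECAM1 (-1.52), were called lower. These levels moved with the groups, and their part in the results was not tested.

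All 9 subunit genes passed the filter, with 373 to 7058 counts per library. Counting error alone gives a coefficient of variation of about 4.93% for the lowest of them, CBX8 in MEL-18 T334A libraries, and 1.22% for the highest, CBX6 in MEL-18 WT libraries. Divided by the merged exon length in GENCODE 29, which may differ from the annotation the authors counted on, PHC2 was the most abundant per kilobase, at 42.5 ± 0.98, 42.7 ± 0.55 and 43.0 ± 1.86 CPM per kb in MEL-18 T334A, MEL-18 WT and vector cells. CBX6 followed at 31.3 ± 0.60, 31.0 ± 0.43 and 31.1 ± 0.48 CPM per kb, and RING1 at 24.0 ± 1.45, 24.5 ± 0.75 and 24.1 ± 1.61. RNF2 and CBX2 came next, at 10.2 ± 0.63 and 7.62 ± 0.23 CPM per kb with the vector, and the remaining 4 genes, PHC3, CBX7, CBX8 and PHC1, lay between 2.99 and 5.85 CPM per kb there. This order was the same in all 3 groups from PHC2 down to CBX7, also with the longest transcript as the length. The lowest places, held by CBX8 and PHC1, exchanged between groups. CBX8 stood at 3.16 ± 0.07 and PHC1 at 3.50 ± 0.07 CPM per kb with MEL-18 T334A, against 3.47 ± 0.13 and 2.99 ± 0.28 CPM per kb with the vector. With MEL-18 WT the libraries of these last genes overlapped, from 2.96 to 3.29 CPM per kb for CBX8 and from 3.25 to 3.27 for PHC1. With MEL-18 T334A PHC3 and CBX7 were barely apart, the lowest PHC3 library and the highest CBX7 library both standing at 4.58 CPM per kb.

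**Figure D1:**
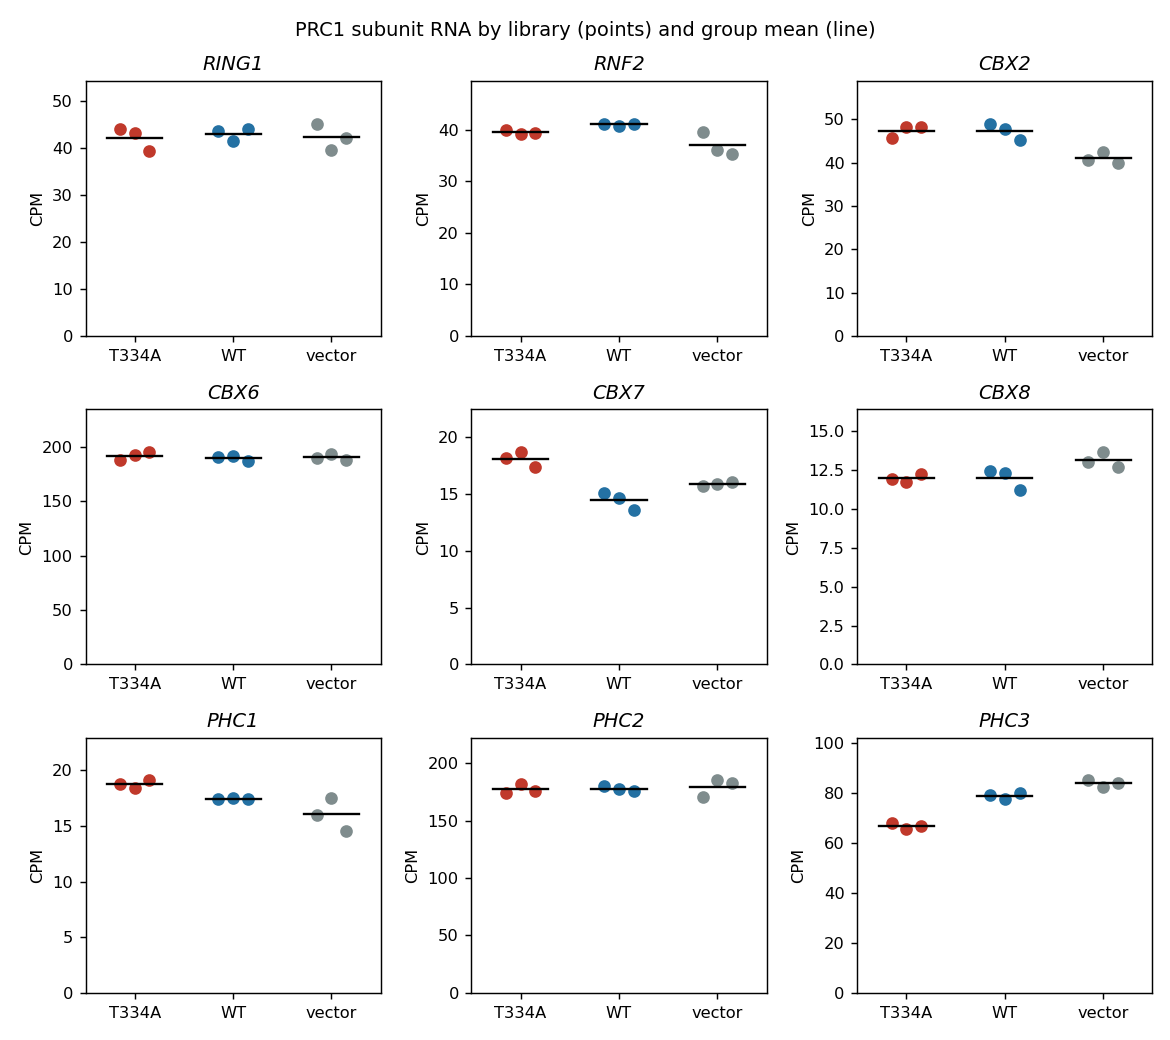
RNA level of each subunit gene in CPM (vertical axis, from 0) in the 3 libraries of each group (points) with the group mean (line), for MEL-18 T334A, MEL-18 WT and the empty vector. PHC3 is lowest in all 3 MEL-18 T334A libraries (65.6 to 67.9 CPM), CBX2 is lowest in the 3 vector libraries (39.96 to 42.3 CPM), and RING1, CBX6 and PHC2 overlap across groups.

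Differences were tested with edgeR's quasi-likelihood test over all 14738 genes, and those with a Benjamini-Hochberg adjusted p under 0.05 count as called. For MEL-18 WT against the vector 3 of the 9 subunit genes passed, RNF2 and CBX2 higher and PHC3 lower. The share called over all tested genes was 28.8%, with 14.4% higher and 14.4% lower. Between MEL-18 T334A and the vector 4 of 9 were called, CBX2, CBX7 and PHC1 higher and PHC3 lower, where 45.9% of all genes were called, 23.4% higher and 22.5% lower. Between MEL-18 T334A and MEL-18 WT 2 of 9 were called, CBX7 higher and PHC3 lower, where 40.9% of all genes were called, 21% higher and 20% lower. These counts are small, and nothing particular to the subunit genes is read from them. With library totals in place of TMM scaling, 60.1%, 64.0% and 58.4% of all calls were higher in these 3 comparisons, against 50.1%, 51.1% and 51.2% with TMM.

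The changes were small. The largest among the 9 genes was a log2 fold change of -0.33, and the median over the 9 genes was -0.004 for MEL-18 WT against the vector, 0.01 for MEL-18 T334A against the vector and -0.003 between the MEL-18 groups, beside -0.002, -0.002 and -0.003 over all tested genes. The median size of change, whatever its direction, was 0.12, 0.13 and 0.03 on the log2 scale for the 9 genes, beside 0.10, 0.14 and 0.12 for all tested genes. The libraries of MEL-18 WT and the vector did not overlap for 5 of the 9 genes (2 higher, 3 lower), beside 42.7% of all tested genes (21.4% higher, 21.3% lower). Those of MEL-18 T334A and the vector did not overlap for 5 (3 higher, 2 lower), beside 51.5% (26.2% higher, 25.2% lower), and those of the MEL-18 groups for 4 (2 higher, 2 lower), beside 48.7% (24.7% higher, 24% lower). The 2 comparisons with the vector share its 3 libraries and are not independent of each other.

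**Figure D2:**
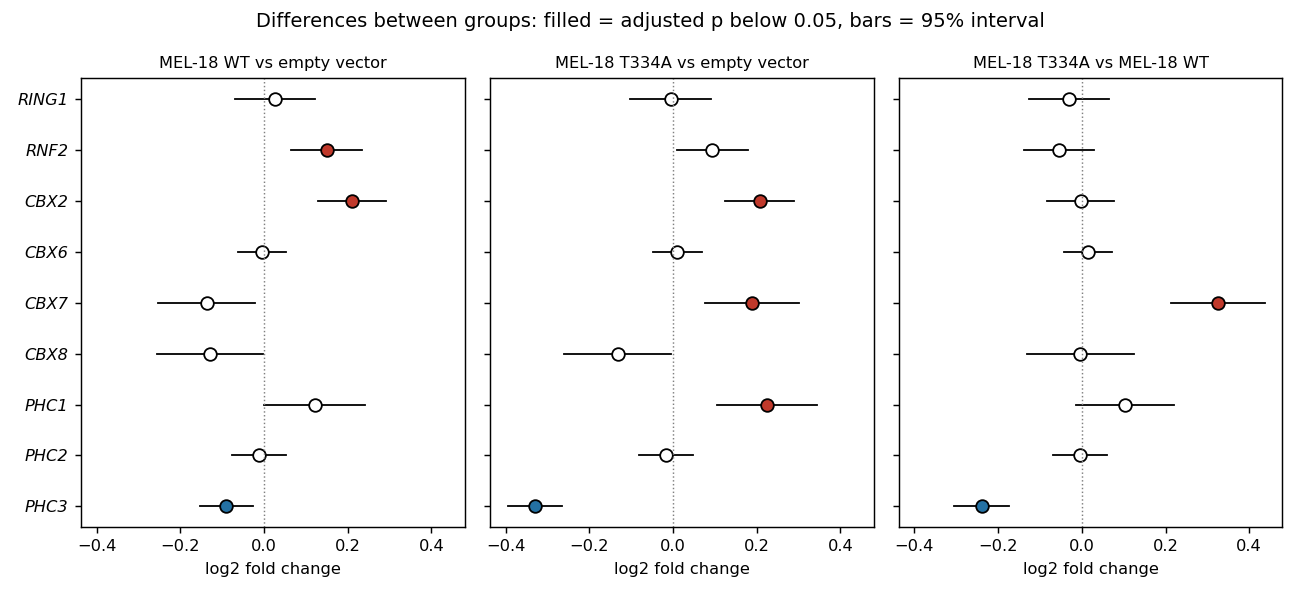
Log2 fold change of each subunit gene (horizontal axis) in the 3 comparisons, with the 95% interval as a bar; filled points passed an adjusted p below 0.05, red for higher and blue for lower. PHC3 is called lower in all 3 panels, CBX2 is called higher in both comparisons with the vector, and CBX7 is called higher in MEL-18 T334A cells against either other group.

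RING1 and RNF2 (also known as RING1A and RING1B) are the alternative E3 ligase subunits. RING1 stood at 44.0, 43.1 and 39.2 CPM in MEL-18 T334A cells, at 43.6, 41.5 and 43.9 CPM in MEL-18 WT cells and at 45.1, 39.5 and 42.0 CPM with the vector. The groups overlapped, and the 95% interval of the log2 fold change was -0.10 to 0.09 for MEL-18 T334A and -0.07 to 0.12 for MEL-18 WT against the vector. RNF2 stood at 39.8, 39.1 and 39.4 CPM with MEL-18 T334A, at 41.1, 40.7 and 41.2 CPM with MEL-18 WT and at 39.5, 36.1 and 35.2 CPM with the vector. Every MEL-18 WT library lay above every vector library, and RNF2 was called higher, 1.11-fold (log2 fold change 0.15 ± 0.04 SE, adjusted p = 0.0068). With MEL-18 T334A it was not called against the vector (0.09 ± 0.04, adjusted p = 0.0652), where vector replicate 1 lay within the range of the mutant libraries. Without that replicate the value was 0.15 ± 0.04 and was called (adjusted p = 0.00758), and it was called too when libraries were scaled by their totals (0.13, adjusted p = 0.00993) or when genes under 1 CPM in more than 6 libraries were dropped (0.10, adjusted p = 0.046). The MEL-18 groups did not differ in RNF2 by the test (-0.05 ± 0.04, 95% interval -0.14 to 0.03, adjusted p = 0.295), though all 3 mutant libraries were below all 3 wild-type ones.

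CBX2, CBX6, CBX7 and CBX8 carry the chromodomain, and 1 of them enters each canonical complex. CBX2, which also compacts nucleosomes through a charged region, stood at 45.6, 48.1 and 48.1 CPM with MEL-18 T334A, at 49.0, 47.8 and 45.3 CPM with MEL-18 WT and at 40.6, 42.3 and 39.96 CPM with the vector. The MEL-18 libraries were all above the vector libraries. The rise was 1.15-fold with MEL-18 T334A (0.21 ± 0.04, adjusted p = 1.15e-04) and 1.16-fold with MEL-18 WT (0.21 ± 0.04, adjusted p = 1.77e-04), and the difference between the MEL-18 groups had a 95% interval of -0.08 to 0.08. Both calls against the vector were kept under every alternative run.

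CBX8, the next gene to CBX2 on chromosome 17, did not rise with it. It stood at 11.9, 11.7 and 12.3 CPM with MEL-18 T334A, at 12.5, 12.3 and 11.2 CPM with MEL-18 WT and at 13.0, 13.7 and 12.7 CPM with the vector. All MEL-18 libraries lay below all vector libraries, but neither difference was called (-0.13 ± 0.06 in each, adjusted p = 0.0856 for MEL-18 T334A and 0.127 for MEL-18 WT).

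CBX7, a chromodomain subunit known for repressing the INK4A locus, was higher in every MEL-18 T334A library, and lower in every MEL-18 WT library, than in any vector library. It stood at 18.2, 18.7 and 17.4 CPM with MEL-18 T334A, at 15.05, 14.6 and 13.6 CPM with MEL-18 WT and at 15.7, 15.8 and 16.1 CPM with the vector. No 2 of the 3 groups overlapped. CBX7 was 1.25-fold higher in MEL-18 T334A than in MEL-18 WT cells (0.33 ± 0.05, adjusted p = 2.93e-05) and 1.14-fold higher than with the vector (0.19 ± 0.05, adjusted p = 0.00624), while MEL-18 WT against the vector was not called (-0.14 ± 0.06, adjusted p = 0.0716). CBX6, on chromosome 22 like CBX7, was the most abundant chromodomain subunit per kilobase and stood at 187.9, 192.2 and 195.2 CPM with MEL-18 T334A, at 191.0, 191.6 and 186.8 CPM with MEL-18 WT and at 189.7, 193.6 and 187.8 CPM with the vector. These groups overlapped, and the 95% interval of the log2 fold change was -0.05 to 0.07 for MEL-18 T334A and -0.06 to 0.05 for MEL-18 WT against the vector.

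The PHC genes encode the polymerising subunits and changed unequally. PHC1 stood at 18.8, 18.4 and 19.1 CPM with MEL-18 T334A, at 17.5, 17.5 and 17.4 CPM with MEL-18 WT and at 16.0, 17.5 and 14.5 CPM with the vector. It was called 1.17-fold higher with MEL-18 T334A (0.22 ± 0.06, adjusted p = 0.00247) but not with MEL-18 WT (0.12 ± 0.06, adjusted p = 0.13), where the groups overlapped at vector replicate 2. Without that replicate the MEL-18 WT value was 0.19 ± 0.06 and was called (adjusted p = 0.026). The MEL-18 groups did not differ in PHC1 by the test (0.10 ± 0.06, 95% interval -0.01 to 0.22, adjusted p = 0.152). In GENCODE 29 PHC1 overlaps M6PR on the other strand, and since the strand setting of the counting is not given in the sources used here, reads of the pair may not be fully separated.

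PHC2, the most abundant of the 9 genes per kilobase, stood at 173.6, 181.6 and 176.1 CPM with MEL-18 T334A, at 180.3, 177.2 and 175.8 CPM with MEL-18 WT and at 170.5, 184.9 and 182.5 CPM with the vector. The groups overlapped, with 95% intervals of -0.08 to 0.05 against the vector for either construct. PHC3 stood at 67.9, 65.6 and 66.8 CPM with MEL-18 T334A, at 79.1, 77.5 and 79.95 CPM with MEL-18 WT and at 85.1, 82.6 and 84.1 CPM with the vector. It was lowest in every mutant library and highest in every vector library, with no overlap between any groups. PHC3 was 1.26-fold lower with MEL-18 T334A than with the vector (-0.33 ± 0.03, adjusted p = 2.99e-09) and 1.18-fold lower than with MEL-18 WT (-0.24 ± 0.03, adjusted p = 9.32e-07).

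The smaller fall of PHC3 with MEL-18 WT (-0.09 ± 0.03, 1.06-fold, adjusted p = 0.0301) depended on the setting. Its adjusted p was above the threshold with DESeq2 (0.0643), when libraries were scaled by their totals (0.0973), with no filter on low counts (0.0754), without vector replicate 1 (0.0885), without vector replicate 3 (0.0915), without MEL-18 WT replicate 1 (0.0707) and without MEL-18 WT replicate 2 (0.113). By edgeR's adjusted p, the calls of PHC3 in both comparisons with MEL-18 T334A were kept when any 1 library was left out, with log2 fold changes from -0.34 to -0.31 against the vector and from -0.25 to -0.22 against MEL-18 WT.

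PHC3, CBX7 and RNF2 were each called in at least 1 comparison and have a single promoter in the RefSeq table, so their promoters are shown. Of the other called genes, CBX2 had no promoter entry there and PHC1 had more than 1. Each promoter runs from 250 bases before to 50 bases after the annotated start on GRCh38.p14. PHC3 lies at chr3:170181684-170181983 on the minus strand, CBX7 at chr22:39152631-39152930 on the minus strand and RNF2 at chr1:185045308-185045607 on the plus strand. Capitals mark matches, on either strand, to GGGCGG (the GC box, CCGCCC on the other strand), CCAAT, the E box CACGTG, the TATA box TATAAA, the YY1 core AAGATGGCG and the palindromic NRF1 motif, and GC boxes may overlap each other.
PHC3: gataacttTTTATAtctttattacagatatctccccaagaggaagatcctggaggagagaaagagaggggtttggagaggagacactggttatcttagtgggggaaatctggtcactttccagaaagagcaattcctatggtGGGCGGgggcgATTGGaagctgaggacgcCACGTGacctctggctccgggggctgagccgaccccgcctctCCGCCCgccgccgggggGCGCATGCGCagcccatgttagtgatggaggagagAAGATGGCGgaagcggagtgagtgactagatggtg
CBX7: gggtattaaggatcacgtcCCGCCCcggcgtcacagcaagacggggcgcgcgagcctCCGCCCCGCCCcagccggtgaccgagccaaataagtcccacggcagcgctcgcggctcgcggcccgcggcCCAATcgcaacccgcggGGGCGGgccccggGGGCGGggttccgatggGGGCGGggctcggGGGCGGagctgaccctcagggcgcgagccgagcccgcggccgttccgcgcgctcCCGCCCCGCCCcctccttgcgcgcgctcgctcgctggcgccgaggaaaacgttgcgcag
RNF2: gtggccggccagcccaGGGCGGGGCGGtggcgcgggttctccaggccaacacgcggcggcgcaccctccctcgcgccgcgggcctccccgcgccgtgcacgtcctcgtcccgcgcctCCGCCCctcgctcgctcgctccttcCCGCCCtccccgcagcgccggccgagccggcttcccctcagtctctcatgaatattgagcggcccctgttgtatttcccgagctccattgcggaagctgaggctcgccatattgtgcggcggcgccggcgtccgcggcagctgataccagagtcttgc
The promoters differ in make-up. That of PHC3 held 15 CpG dinucleotides and all 6 motifs, namely 2 GC boxes and 1 match to each of the others. That of CBX7 held 50 CpG, 9 GC boxes and 1 CCAAT, and that of RNF2 held 41 CpG and 4 GC boxes. Over the 35116 promoters of the table the median was 14 CpG, and 45.0% held a GC box, 34.6% CCAAT, 7.26% the E box, 11.5% the TATA box, 1.75% the YY1 core and 1.24% the NRF1 motif. A match describes the letters only, and these data hold no measure of binding.

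The genes beside a subunit gene on its chromosome were examined, since a change shared by a stretch of a chromosome is not particular to 1 gene in it. For each subunit the 20 tested genes on either side, in RefSeq order, were taken. Beside PHC3, on chromosome 3, the 40 neighbours had a median log2 fold change of -0.23 for MEL-18 T334A against the vector, with 26 called lower and 1 higher. Its nearest neighbours GPR160 and PRKCI stood at -0.33 and -0.23, and 8 of the 40 were lower than PHC3 itself. For MEL-18 WT against the vector the median was -0.11, with 18 called lower and 3 higher, and between the MEL-18 groups it was -0.10, with 21 lower and 3 higher. Over all tested genes 22.5% were called lower and 23.4% higher for MEL-18 T334A against the vector. These shares were 14.4% and 14.4% for MEL-18 WT against the vector, and 20% and 21% between the MEL-18 groups. The neighbours were taken out of the fit in 2 ways, which differ because a median of differences is not a difference of medians. A group offset used the median deviation of the neighbours in each group from the mean of the 3 groups. A comparison offset, chosen after seeing the data, used the median fold change of the neighbours in that comparison. With the group offset PHC3 stood at -0.10 ± 0.03 for MEL-18 T334A against the vector (edgeR adjusted p = 0.0173), at -0.12 ± 0.03 between the MEL-18 groups (adjusted p = 0.00649) and at 0.02 ± 0.03 for MEL-18 WT against the vector (adjusted p = 0.721). With the comparison offset it stood at -0.10 ± 0.03, -0.14 ± 0.03 and 0.02 ± 0.03 (adjusted p = 0.0151, 0.0018 and 0.678). These p-values take the shift as known and leave out its error.

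CBX6 and CBX7 share 34 of their 40 neighbours on chromosome 22, and these stood higher in MEL-18 T334A cells. Around CBX7 the median was 0.11 against the vector, with 17 called higher and 1 lower, and 0.13 against MEL-18 WT, with 20 higher and 3 lower. Over all tested genes 23.4% were called higher and 22.5% lower against the vector, and 21% higher and 20% lower against MEL-18 WT. With the group offset, whose shift was 0.12 against the vector and 0.10 against MEL-18 WT, CBX7 was no longer called against the vector (0.07 ± 0.05, edgeR adjusted p = 0.369) and stayed called against MEL-18 WT (0.23 ± 0.05, adjusted p = 0.00215). With the comparison offset the values were 0.08 ± 0.05 (adjusted p = 0.271) and 0.19 ± 0.05 (adjusted p = 0.00834). For MEL-18 WT against the vector CBX7 was called lower with the group offset (-0.16 ± 0.06, adjusted p = 0.0382) but not with the comparison offset (-0.14 ± 0.06, adjusted p = 0.0798). CBX6, at 0.01 before, was called lower with MEL-18 T334A than with the vector under both offsets (-0.09 ± 0.03 and -0.10 ± 0.03, adjusted p = 0.00945 and 0.00579). Between the MEL-18 groups it was called lower with the comparison offset (-0.11 ± 0.03, adjusted p = 0.0035) and not with the group offset (-0.06 ± 0.03, adjusted p = 0.0945).

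Beside CBX2 the median of the neighbours was -0.004 for MEL-18 T334A and 0.01 for MEL-18 WT against the vector, and CBX2 was above 35 of its 40 neighbours in either comparison. With the group offset its change was 0.23 ± 0.04 and 0.21 ± 0.04 (edgeR adjusted p = 5.22e-05 and 2.23e-04). Around RNF2, on chromosome 1, the median was 0.09 for MEL-18 T334A against the vector and 0.01 for MEL-18 WT. With the group offset its difference for MEL-18 T334A against the vector was 0.01 ± 0.04 (adjusted p = 0.854), its rise with MEL-18 WT was 0.13 ± 0.04 (adjusted p = 0.0189), and RNF2 was called lower in MEL-18 T334A than in MEL-18 WT cells (-0.12 ± 0.04, adjusted p = 0.0222). The comparison offset gave the same calls for RNF2, with 0.01, 0.14 and -0.14. The median around PHC1, on chromosome 12, was 0.09 for MEL-18 T334A against the vector, and the shift in the group offset was 0.06. PHC1 was called there with the group offset (0.16 ± 0.06, adjusted p = 0.0313) and not with the comparison offset (0.13 ± 0.06, adjusted p = 0.0806).

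**Figure D3:**
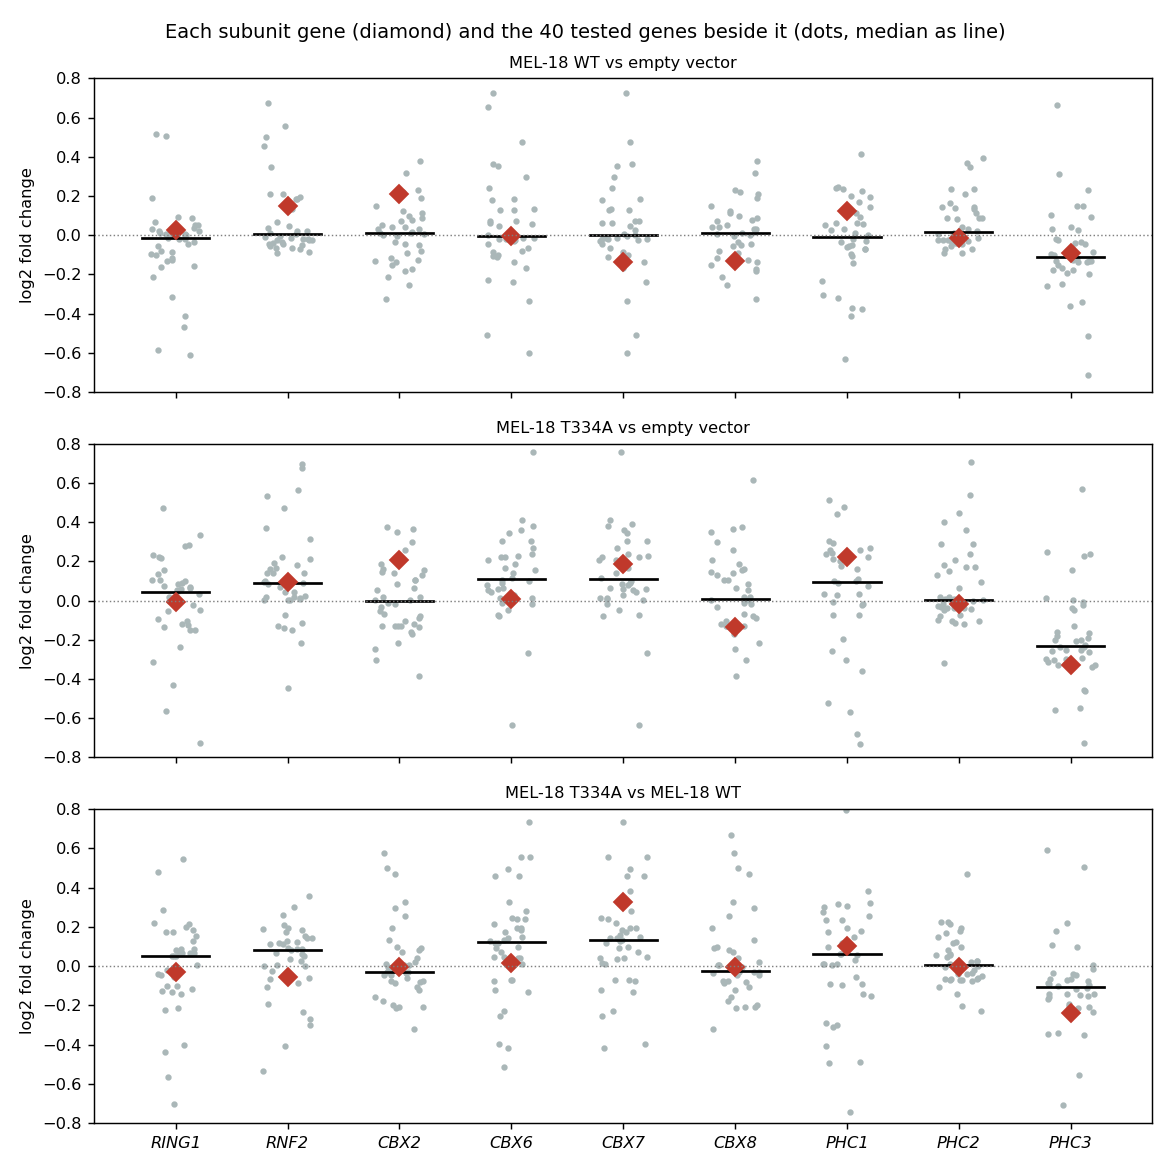
Log2 fold change (vertical axis) of each subunit gene (red diamond) and of the 40 tested genes beside it (grey dots, median as a black line), in the 3 comparisons; 33 dots lie beyond the axis limit of 0.8 in either direction and are not drawn. The neighbours of PHC3 are centred at -0.23 for MEL-18 T334A against the vector, and those of CBX2 near 0 with CBX2 above most of them.

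Ratios of paired subunits within a library do not depend on the scaling of the libraries. CBX2 held 3.80, 4.08 and 3.90 times the counts of CBX8 in MEL-18 T334A libraries, 3.92, 3.87 and 4.02 times in MEL-18 WT libraries and 3.10, 3.09 and 3.13 times in vector libraries. The log2 ratio was higher by 0.34 with either construct than with the vector. The ratio of CBX6 to CBX7 was 10.3, 10.3 and 11.2 with MEL-18 T334A, 12.7, 13.1 and 13.7 with MEL-18 WT and 12.03, 12.2 and 11.7 with the vector, with no overlap between groups. The ratio of PHC2 to PHC3 was 2.56, 2.76 and 2.63 with MEL-18 T334A, 2.28, 2.29 and 2.20 with MEL-18 WT and 2.003, 2.24 and 2.17 with the vector, so that the mutant libraries were above all others. The mean log2 ratio of RING1 to RNF2 was 0.09 ± 0.08, 0.07 ± 0.03 and 0.19 ± 0.06 (SD, n = 3 each) in MEL-18 T334A, MEL-18 WT and vector libraries. A two-sided exact permutation test of 3 against 3 libraries cannot give less than p = 0.1. It gave 0.1 in 8 of the 12 tests (4 ratios in 3 comparisons; 0.15 after Benjamini-Hochberg adjustment), and the others ran from 0.2 to 0.9.

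**Figure D4:**
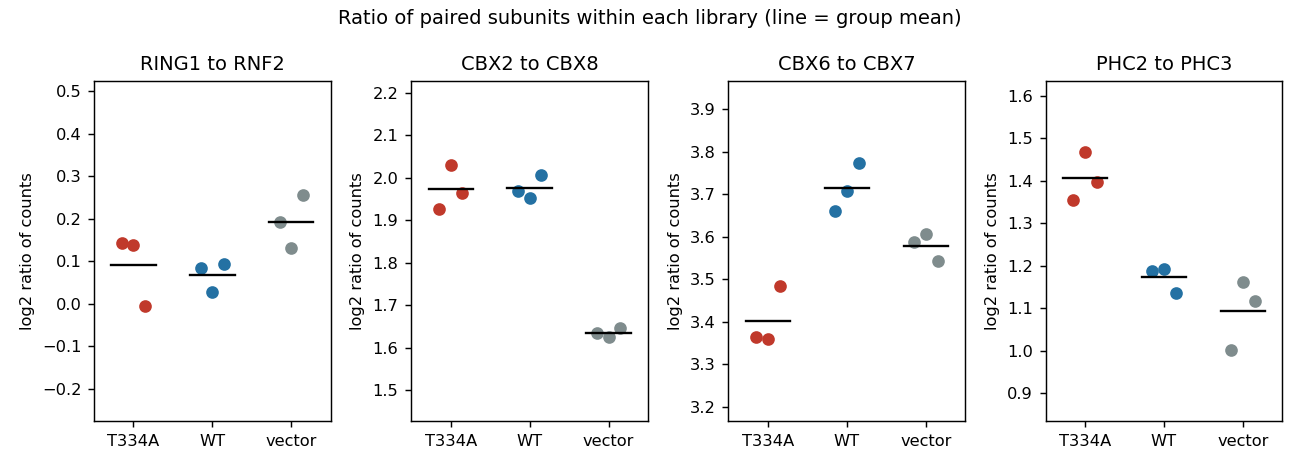
Log2 ratio of the counts of paired subunits (vertical axis, each panel spanning the same height) in the 3 libraries of each group, with the group mean as a line. CBX2 to CBX8 is higher in all 6 MEL-18 libraries than in the 3 vector libraries, and CBX6 to CBX7 is lowest and PHC2 to PHC3 highest in the MEL-18 T334A libraries.

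PHC3 had the largest F value over the 3 groups among the 9 genes. Of 9622 tested genes averaging 10 CPM or more, those whose log2 CPM followed it most closely over the 9 libraries were MRPL19, a mitochondrial ribosomal protein (Pearson r = 0.996), SSR1, of the translocon-associated complex (0.995), PRKD3, a protein kinase (0.995), SPCS3, a signal peptidase subunit (0.995) and EHBP1 (0.994). They lie on chromosomes 2, 6, 2, 4 and 2, and MRPL19 for example averaged 101.9, 127.0 and 138.4 CPM in MEL-18 T334A, MEL-18 WT and vector cells. The libraries fall into 3 groups, so r describes the shared order of the groups and carries no test.

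Other genes of the pathway were counted in the same fit. Of 20 further PRC1 genes, which include the other PCGF proteins, SCMH1 and SCML2 and the subunits of variant complexes, 19 were tested and AUTS2 was not. With MEL-18 T334A 5 rose and 3 fell against the vector (median log2 fold change 0.03), with MEL-18 WT 7 rose and 2 fell (median 0.05), and between the MEL-18 groups 1 was higher and 5 lower in the mutant (median -0.01). The shares called over all tested genes in these comparisons were 45.9%, 28.8% and 40.9%. FBRSL1, of the PCGF3 and PCGF5 complexes, rose by 0.33 ± 0.05 and 0.32 ± 0.05 against the vector with MEL-18 T334A and MEL-18 WT, and BCORL1, a corepressor related to the PCGF1 partner BCOR, by 0.32 ± 0.04 and 0.28 ± 0.04. PCGF1 itself fell by 0.24 ± 0.07 and 0.19 ± 0.06. MGA, a DNA-binding subunit of the PCGF6 complex, was lower in MEL-18 T334A than in MEL-18 WT cells (-0.21 ± 0.04). Against the vector MGA was called higher with MEL-18 WT (0.22 ± 0.04) and was not called with MEL-18 T334A (0.01 ± 0.04).

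Of 7 genes that remove the H2AK119 ubiquitin, or help to, 6 were tested, and 3 were called lower and 1 higher with MEL-18 T334A against the vector (median log2 fold change -0.10), beside 22.5% lower and 23.4% higher over all tested genes. ASXL2, a partner of the deubiquitinase BAP1, fell by 0.34 ± 0.03, USP16 by 0.18 ± 0.04 and ASXL1 by 0.15 ± 0.03, while BAP1 rose by 0.08 ± 0.03. With MEL-18 WT 1 of the 6 was called against the vector, USP21, which fell by 0.21 ± 0.04. Over all tested genes 28.8% were called in that comparison, 14.4% higher and 14.4% lower. Between the MEL-18 groups 2 of the 6 were higher and 3 lower in the mutant, beside 21% higher and 20% lower over all tested genes. Of the 6 PRC2 core genes 3 fell with MEL-18 T334A and 1 with MEL-18 WT against the vector, and none rose, beside 22.5% and 14.4% of all tested genes called lower. The methyltransferase gene EZH2 fell by 0.10 ± 0.03 with MEL-18 T334A and by 0.18 ± 0.03 with MEL-18 WT, and SUZ12 by 0.14 ± 0.03 with MEL-18 T334A.

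The HP1 genes CBX1, CBX3 and CBX5 share the chromodomain with the PRC1 subunits but bind H3K9 methylation and are not part of PRC1. All 3 fell with MEL-18 WT against the vector, where 14.4% of all tested genes were called lower, CBX3 by 0.28 ± 0.03, CBX5 by 0.26 ± 0.03 and CBX1 by 0.09 ± 0.03, and CBX5 alone of the 3 was called with MEL-18 T334A, where it fell by 0.16 ± 0.03. CBX3 averaged 262.0 ± 12.9 CPM with MEL-18 T334A and 222.9 ± 4.37 CPM with MEL-18 WT (0.23 ± 0.03, adjusted p = 3.21e-06), against 270.3 ± 9.99 CPM with the vector, and it has processed copies in the genome with which it may share reads. Of the subunit genes called with MEL-18 WT against the vector, CBX2 and RNF2 thus moved opposite to the HP1 genes. PHC3 moved in the direction of the HP1 genes, though its call depended on the setting. Among the uncalled subunit genes CBX7 and CBX8 were lower too (-0.14 and -0.13) and PHC1 was higher (0.12). RING1, CBX6 and PHC2 stood at 0.03, -0.004 and -0.01.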

How the data were processed

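Per the labels' protocols, poly(A) RNA was captured and sequenced with a stranded TruSeq kit. The deposited files hold whole-number counts per gene symbol, with no normalization. The submitters' processing notes name CASAVA 1.8, STAR 2.5.3a, featureCounts, Subread 1.5.3 and hg19. Neither the annotation nor the strand setting of the counting is given in the sources used here. No file held blank rows.

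Genes were filtered with filterByExpr and scaled by TMM (factors 0.979 to 1.02). All 9 libraries entered 1 model with 3 group means, tested by quasi-likelihood in edgeR 4.0.16 (R 4.3.3). The biological coefficient of variation was 2.57%. CPM are over TMM-scaled totals. Each SE was the size of the log2 fold change divided by the root of its F value. The ratios used a prior count of 2. Replicates differed by more than sampling noise, with chi-square over degrees of freedom from 1.49 to 3.98. The fits were also run on counts simulated with a common dispersion for all genes. That simulation held no difference between transduced lines, and no result here rests on it. Lengths came from GENCODE 29, and gene order, matched for 14423 tested genes, and promoters from RefSeq on GRCh38.p14, another build than that of the counts.

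Alternatives were DESeq2 1.42.0, RLE factors, library totals, 2 other filters, a replicate block, the compared groups alone, limma 3.58.1 voom, the shift of the chromosomal neighbours taken out (as a group offset and, added after seeing the data, as a comparison offset), a prior count of 0.5 for the ratios, and each library left out. The 9 genes and the lists were chosen with earlier results of these data known. The genes named are the 9, PCGF2 and, from each list, called members with the largest change, up to 4 per comparison, of which the text gives part. The nearest neighbours of PHC3 were added after their values were seen.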

Additional observations from a re-analysis of the deposited data

How the results depend on the processing

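Counts of all genes called and of subunit genes called stayed within 1.5 times the reported count under every alternative run, except that 4 subunit genes in place of 2 were called between the MEL-18 groups with the comparison offset for chromosomal neighbours, which was chosen after seeing the data. With any 1 library left out, 3441 to 4699 genes were called for MEL-18 WT against the vector, 5840 to 6878 for MEL-18 T334A against the vector and 4948 to 6304 between the MEL-18 groups, and 2 to 4, 4 to 5 and 2 subunit genes. Among called values, directions turned with the neighbours taken out: PHC3 for MEL-18 WT against the vector stood at 0.0192 with the group offset and 0.0222 with the comparison offset, CBX6 for MEL-18 T334A against the vector at -0.0938 and -0.10, and CBX6 between the MEL-18 groups at -0.11 with the comparison offset. The offsets move these values by construction. Uncalled values of at most 0.03 in size, of RING1, CBX2, CBX6, CBX8 and PHC2, changed sign in 38 further cases without being called. The calls gained or lost otherwise are given beside RNF2, CBX7, PHC1 and PHC3, and their cause was not tested. The differences in the 12 ratios kept their direction with a prior count of 0.5, and where they were over 0.1 in size also with any 1 library left out. The labels do not say whether a shared replicate number marks a shared batch. A check of the libraries showed no sign of pairing by number, which cannot establish that the samples were unpaired. For this check the group mean of each gene was subtracted from its log2 CPM. The remaining deviations of same-numbered libraries of different groups had correlations of -0.08 to 0.01, and 0 of 9 libraries correlated best with their own number. With the replicate block 3963, 6496 and 5757 genes were called in the 3 comparisons in the order above, and 3, 4 and 2 subunit genes. Depth limits CBX8, CBX7 and PHC1, with the fewest counts, of which CBX8 has a counting error of 4.83 to 4.93% over the groups.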
